A study of Mus musculus with 208 samples.

Results

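Prostaglandin synthesis and prostaglandin E2 reception were followed through 9 of the 46403 genes in the count matrices, named Ptgs1, Ptgs2, Ptges, Ptges3, Ptgds, Ptger1, Ptger2, Ptger3 and Ptger4. They were taken by symbol from the raw count matrices and the CPM matrices, in which counts are scaled to an equal library total, of 4 brain regions. The rule that chose them used no measured value, although earlier results of these data were known when it was set. Reads were found for 9 of them in the hypothalamus and for 8 in each of the hippocampus, prefrontal cortex and striatum.

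RNA came from NeuN+ nuclei, that is nuclei sorted for a neuronal protein, of adult wild type C57BL/6NTac mice, with 1 library per animal and region and 208 libraries from 71 animals. About 5000 sorted nuclei went into a library. Dams carried a minipump with either saline or morphine, the latter dosed at 10 mg/kg each day. Their pups were moved to drug-naive surrogate dams after birth and injected 2 times daily with the same agent, at 10 mg/kg for morphine, from day 1 to day 14. As adults the offspring received lipopolysaccharide (LPS), a bacterial cell wall component, or saline, and tissue was taken 2 h later. Conditions are written with the perinatal exposure first (SAL or MOR) and the adult challenge second. In the order hypothalamus, hippocampus, prefrontal cortex and striatum, SAL-SAL had 11, 13, 10 and 13 libraries, SAL-LPS had 12, 14, 10 and 15, MOR-SAL had 14, 12, 12 and 8, and MOR-LPS had 14, 16, 16 and 18. Both sexes entered every group. The replicate names hold 18 litter numbers, each with 1 exposure, and 1 of them had both sexes, so litter number, exposure and mostly sex go together. The study's methods count more litters, so a number may not stand for a single litter, and every litter block or left-out litter here goes by these numbers.

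Prostaglandins are lipid mediators made from arachidonic acid. The cyclooxygenases, encoded by Ptgs1 and Ptgs2, form a shared precursor, and terminal synthases turn it into single prostaglandins. Prostaglandin E2 acts on the receptors EP1 to EP4, encoded by Ptger1 to Ptger4, and is a mediator of fever in the hypothalamus. Prostaglandin D2 is known for its part in sleep, and its brain synthase Ptgds is a well-known product of oligodendrocytes and the leptomeninges, which are not neurons.

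Total counts ran from 7673 to 35077048 in the hypothalamus, 227025 to 24071488 in the hippocampus, 3056648 to 21988203 in the prefrontal cortex and 5954700 to 92945090 in the striatum. There were 8 libraries under 0.5 of their region's median total, and the 3 hypothalamic ones all had perinatal saline. In 9 libraries the Y-linked genes went against the labelled sex. The summed level of 6 neuronal markers was high in every group, with medians from 7042 to 11970 CPM. The hypothalamic matrix differed from the others in which genes it counted. Of the genes with a hypothalamic median of at least 5 CPM, 1480 had no read in any hippocampal, prefrontal or striatal library, the astrocyte marker Gfap and the microglial marker P2ry12 among them. Region and matrix therefore cannot be told apart where the hypothalamus is compared with another region.

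Per kilobase of exon, Ptgds had the highest median level of the 9 genes in every region, at 36.5 CPM per kb in the hypothalamus, 15.9 in the hippocampus, 34.8 in the prefrontal cortex and 28.3 in the striatum. Ptges3, which encodes the co-chaperone p23, also called cytosolic prostaglandin E synthase, came next in every region, from 10.2 to 14.5 CPM per kb. Every other member had a median of at most 3.47 CPM per kb. The inducible cyclooxygenase Ptgs2 ranked last in the hypothalamus, at 0.0717 CPM per kb, and had rank 4 of 9 in the hippocampus, at 1.35 CPM per kb.

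By the GENCODE annotation of mm10 (GRCm38), the synthesis genes lie at chr2:36230426-36252272 on the plus strand (Ptgs1), chr1:150100031-150108227 on the plus strand (Ptgs2), chr2:30889471-30929863 on the minus strand (Ptges), chr10:128058954-128077272 on the plus strand (Ptges3) and chr2:25466709-25470046 on the minus strand (Ptgds). The receptor genes Ptger2 (chr14:44988195-45003820) and Ptger3 (chr3:157566892-157645888) lie on the plus strand and Ptger4 (chr15:5206661-5244187) on the minus strand. Exons of other genes on the opposite strand cover 3.81% of the exonic bases of Ptgs1, 4.74% of Ptger2 and 16.5% of Ptger4, and 0% of Ptgs2, Ptges, Ptges3, Ptgds and Ptger3.

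Among the members counted in every region, Ptgs2 had the largest ratio between regional medians in CPM. Its median level was 6.19 CPM over 55 hippocampal, 1.01 over 48 prefrontal, 0.485 over 54 striatal and 0.328 over 51 hypothalamic libraries. The hippocampal level was above the prefrontal one by 1.73 on the log2 scale (SE 0.40, edgeR adjusted p = 0.000152) and above the striatal one by 2.97 (SE 0.43, edgeR adjusted p = 1.29e-09). The striatum and the hypothalamus, neighbours at the low end, were not called different (log2 difference 0.18, SE 0.51, edgeR adjusted p = 0.869).

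Ptger1 had its lowest median in the hippocampus, 5.58 CPM, against 8.09 in the striatum, 13.9 in the prefrontal cortex and 18.9 in the hypothalamus. The hippocampal level lay below the striatal one by a log2 difference of -0.60 (SE 0.16, edgeR adjusted p = 0.00105) and below the prefrontal one by -1.53 (SE 0.16, edgeR adjusted p = 6.08e-16). Its prefrontal and hypothalamic levels were not called different. Ptger4 was highest in the striatum, with a median of 12.6 CPM against 7.74 in the prefrontal cortex (log2 difference, prefrontal less striatal, of -0.65, SE 0.17, edgeR adjusted p = 0.000664). Ptges, the inducible microsomal prostaglandin E synthase, and Ptges3 were called in no pair of regions by this fit. With animal as a random block Ptges was called higher in the hypothalamus than in the hippocampus (1.02, limma adjusted p = 0.00175) and prefrontal cortex (1.12, limma adjusted p = 0.00131), and Ptges3 higher in the hippocampus than in the prefrontal cortex (0.28, limma adjusted p = 0.0156) and striatum (0.25, limma adjusted p = 0.0241).

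Ptger2 was listed at 0 in all 55 hippocampal, 48 prefrontal and 54 striatal libraries. In the hypothalamus its median was 1.61 CPM, with 11 of 51 libraries at 0, and no fold was taken against matrices at 0. Of the 8 members tested, 4 were called between the hippocampus and the prefrontal cortex, where 40.5% of all genes were, 3 between the hippocampus and the striatum, against 40%, and 3 between the prefrontal cortex and the striatum, against 44.2%. Comparisons of the hypothalamus with the hippocampus, prefrontal cortex and striatum called 5, 2 and 2 members, against 59.5%, 61.7% and 59.1% of all genes.

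The first question of the design is which genes moved 2 h after LPS, and Ptgds was the member that rose, after perinatal morphine. In the hypothalamus Ptgds ran from 11.9 to 90.4 CPM in MOR-SAL, with a median of 35.8, and from 42.3 to 3024 CPM in MOR-LPS, with a median of 228. All 14 MOR-LPS libraries lay above the MOR-SAL median and 9 lay above every MOR-SAL library. The log2 fold change was 3.29 (SE 0.53, edgeR adjusted p = 9.97e-05).

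Prefrontal Ptgds ran from 13.1 to 155 CPM in MOR-SAL, with a median of 28.4, and from 15.3 to 1712 CPM in MOR-LPS, with a median of 141. The groups overlapped, with 7 of 16 MOR-LPS libraries above every MOR-SAL library. The log2 fold change was 2.66 (SE 0.51, edgeR adjusted p = 0.0300). Across 45 fits that each left out 1 litter or 1 library of the morphine groups it ran from 2.13 to 3.21, and 12 of them lost the call, with adjusted p up to 0.174. Those were the fits without litters 1, 14, 15, 16 or 17 and without libraries 14-4, 15-0, 15-1, 15-2, 15-3, 16-3 or 17-2. The call was lost under 8 of 17 alternatives, with log2 fold changes from 1.14 to 2.91 and adjusted p from 0.0587 to 0.546. These were a random litter block (2.19, limma adjusted p = 0.253), the oligodendrocyte and microglial covariates, each sex alone, limma with either pseudocount and the removal of libraries whose Y-linked genes went against the labelled sex. With litter as a fixed block it was kept (2.85, edgeR adjusted p = 0.000370).

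In the striatum Ptgds ran from 3.19 to 105 CPM in the 8 MOR-SAL libraries, with a median of 15.1, and from 13.8 to 2489 CPM in the 18 MOR-LPS libraries, with a median of 132. Of the MOR-LPS libraries 9 lay above every MOR-SAL library. The log2 fold change was 3.05 (SE 0.84, edgeR adjusted p = 0.0481). It ran from 2.54 to 4.48 over 44 fits that each left out 1 litter or library, and 30 of these lost the call, those without any 1 of 14 litters or of 16 libraries (adjusted p up to 0.232). It was also lost with litter as a fixed block (3.04, edgeR adjusted p = 0.195), in males alone (1.17, edgeR adjusted p = 0.755) and with the microglial marker sum as a covariate (0.92, edgeR adjusted p = 0.101). Fitting all genes with a total count above 0 lost the call as well, which makes 4 alternatives. DESeq2 (adjusted p = 0.000995) and a random litter block (3.38, limma adjusted p = 0.0345) kept it.

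In the hippocampus the Ptgds medians were 23.9 CPM in MOR-SAL and 45.1 CPM in MOR-LPS, and 2 of 16 MOR-LPS libraries lay above every MOR-SAL library, reaching 1465 CPM. The log2 fold change of 2.07 (SE 0.56) was not called (edgeR adjusted p = 0.0582; DESeq2 adjusted p = 0.0419). Over 46 fits that each left out 1 litter or library it ran from 1.38 to 2.45, with edgeR adjusted p up to 0.171. Without library 17-2 it was called (edgeR adjusted p = 0.0495), and in no other of these fits. For MOR-LPS against MOR-SAL, 1 of 9 members was called in the hypothalamus, where 6.27% of all genes were, and 0 of 8 in the hippocampus, where 0.467% were. The edgeR count of 0 stands beside 1 member at an unadjusted p under 0.05 and 1 called by DESeq2. The prefrontal fit called 1 of 8, against 0.0184% of all genes, and the striatal fit 2 of 8, against 1.39%. In fits of genes with a mean count of at least 10 per library, chosen after seeing the data, 1, 0, 1 and 2 members were called, against 3.89%, 0.049%, 0.0141% and 1.73% of the genes.

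**Figure D1:**
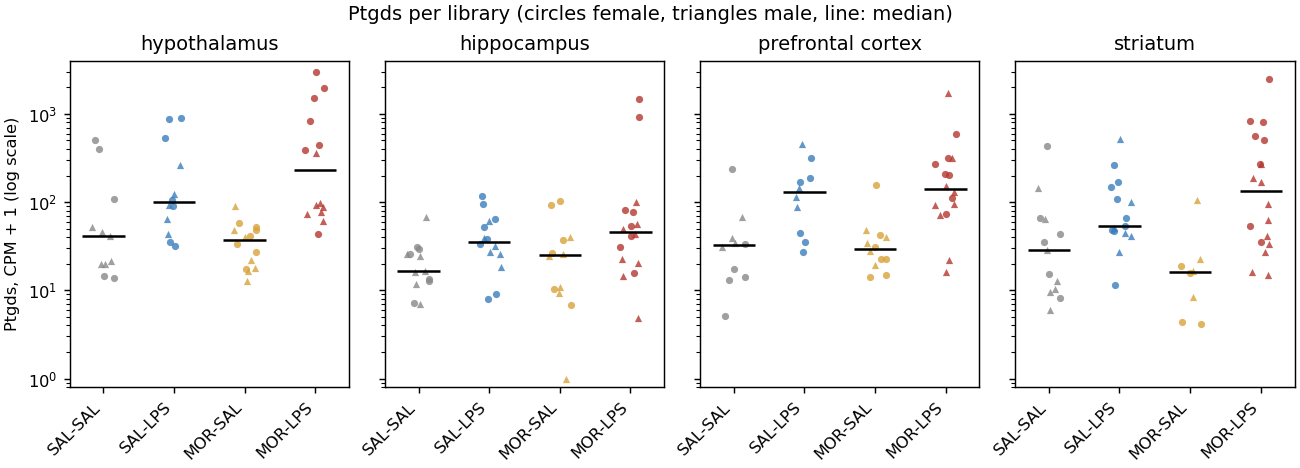
Ptgds in each library as CPM + 1 on a log axis, by region and condition, with circles for females, triangles for males and a line at the group median. The MOR-LPS medians of 228, 45.1, 141 and 132 CPM are the highest of the 4 conditions in their regions, while the groups overlap.

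After perinatal saline the Ptgds differences with LPS pointed the same way and none was called. The medians in SAL-SAL and SAL-LPS were 40.8 and 98.9 CPM in the hypothalamus, 15.7 and 34.6 in the hippocampus, 31.4 and 129 in the prefrontal cortex, and 27.5 and 52.8 in the striatum. The log2 fold changes were 1.26 (SE 0.53), 0.84 (SE 0.52), 1.60 (SE 0.56) and 0.97 (SE 0.61), with edgeR adjusted p of 0.231, 0.436, 0.167 and 0.556. They were also fitted without each litter, and without each library of the morphine groups. The values then ran from 0.81 to 1.65, 0.50 to 0.96, 1.12 to 2.46 and 0.46 to 1.56, and none was called. For SAL-LPS against SAL-SAL 0 members were called by edgeR in each region, where 0.246%, 2.55%, 0% and 0.0128% of all genes were. At an unadjusted p under 0.05 there were 2, 1, 1 and 1 members, and DESeq2 also called 0 in each region. Over all prefrontal genes, 2752 had an unadjusted p under 0.05 and DESeq2 called 71. With a mean count of at least 10 required, 0 members were called in each region by edgeR, against 0.107%, 0.014%, 0.00703% and 0.00668% of the genes.

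A call after morphine and none after saline does not show a difference between the exposures, which the interaction tests directly, as the LPS effect after morphine less that after saline. For Ptgds it was 2.04 (SE 0.72, edgeR adjusted p = 0.0992) in the hypothalamus, 1.23 (SE 0.73, edgeR adjusted p = 0.519) in the hippocampus, 1.06 (SE 0.72, edgeR adjusted p = 0.697) in the prefrontal cortex and 2.09 (SE 1.00, edgeR adjusted p = 0.312) in the striatum, all on the log2 scale. No member was called by edgeR for the interaction, where 3.8%, 2.35%, 1.78% and 0.00854% of all genes were. At an unadjusted p under 0.05 there were 1, 1, 0 and 3 members, and DESeq2 called 0. With a mean count of at least 10, edgeR called 0 members, against 0.766% of hypothalamic genes and 0% elsewhere.

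After morphine, more markers of cells other than neurons were called higher with LPS in the hypothalamus than in the other regions. For MOR-LPS against MOR-SAL in the hypothalamus, 5 of 7 oligodendrocyte markers (Mag, Mbp, Mobp and Mog among them), 5 of 6 astrocyte markers and 4 of 8 microglial markers were called higher, with list medians of 1.74, 2.43 and 1.37 on the log2 scale against 0.00 over all genes tested. Among striatal libraries 0 of 7, 3 of 5 and 1 of 7 were. In the prefrontal cortex edgeR called 0 of 7, 0 of 5 and 0 of 7, and 7, 4 and 4 were higher at an unadjusted p under 0.05. In the hippocampus it also called 0 of each list, with 1, 3 and 1 higher at an unadjusted p under 0.05. After saline, where the Ptgds differences pointed up, the median of the oligodendrocyte markers was -0.82, -0.39, -0.51 and -0.90 in the 4 regions, with none called. Neuronal markers had 0 of 6 called by edgeR in either comparison and every region, with at most 1 at an unadjusted p under 0.05.

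The same lists were also read without LPS. For MOR-SAL against SAL-SAL the oligodendrocyte median was -1.63 in the hypothalamus, where 1 of 7 markers (Mobp) was called lower and 6 were lower at an unadjusted p under 0.05. The prefrontal median was -1.55, with 0 called by edgeR and 5 lower at an unadjusted p under 0.05. The hippocampal and striatal medians were 0.16 and -0.55.

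The leptomeninges, another known source of Ptgds, were read through 6 markers. Their summed level in the hypothalamus ran from 0.154 to 11.7 CPM in MOR-SAL and from 1.26 to 68.0 CPM in MOR-LPS, with medians of 6.94 and 14.6, and 1 of 6 (Slc22a6) was called higher, on a mean count of 2.27 with 39 of 51 libraries at 0. Between Ptgds and this sum Pearson's r was 0.618, 0.474, 0.421 and 0.0459 in the hypothalamus, hippocampus, prefrontal cortex and striatum, and Spearman's rho was 0.582, 0.462, 0.404 and 0.202. In the striatum neither passed (adjusted permutation p = 0.78 and 0.24). Of 6 endothelial and 5 choroid plexus markers 0 were called in hypothalamic MOR-LPS against MOR-SAL by edgeR, with 1 of each list at an unadjusted p under 0.05. Ptgds and the endothelial sum were inversely related in the striatum (r -0.438, adjusted permutation p = 0.0018, and -0.477 without the 2 farthest libraries; rho -0.413, adjusted permutation p = 0.0044). In the other regions neither relation passed, with r from -0.176 to 0.239, and neither did the choroid plexus relations in any region, with r from -0.0831 to 0.135.

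Some genes known to answer inflammation and glucocorticoids were also called in MOR-LPS against MOR-SAL. Of 14 inflammatory genes in the hypothalamus 7 were called higher (Ccl2, Cebpb, Cebpd, Cxcl1, Icam1, Lcn2 and Nfkbia), with a list median of 2.98 on the log2 scale, and of 8 glucocorticoid-responsive genes 6 were, Fkbp5 and Sgk1 among them. Ccl2, Cxcl1 and Cebpb had mean counts of 0.922, 1.14 and 3.78 per library, with 45, 39 and 30 of 51 libraries at 0, and genes with few counts drew false calls on simulated data. Striatal libraries had 5 of 12 inflammatory genes (Cebpd, Icam1, Lcn2, Socs3 and Tnf) and 2 of 8 glucocorticoid-responsive genes (Cdkn1a and Fkbp5) called higher. Of those inflammatory genes Tnf (2.61), Socs3 (5.46), Cebpd (6.57) and Icam1 (9.96) had mean counts under 10, and Tnf was at 0 in 35 of 54 libraries. In the hippocampus and the prefrontal cortex edgeR called 0 of 12 and 0 of 8, with 3 and 4 higher at an unadjusted p under 0.05 in the former and 5 and 4 in the latter. The summed inflammatory genes had hippocampal medians of 74.2 CPM in MOR-SAL and 62.7 CPM in MOR-LPS. After perinatal saline Lcn2 was the inflammatory gene called, in the hypothalamus and the striatum. Of 12 immediate early genes, which mark neuronal activity, Arc was the one called, in the hypothalamus after morphine.

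The summed oligodendrocyte markers of hypothalamic libraries ran from 77.6 to 700 CPM in MOR-SAL and from 222 to 6913 CPM in MOR-LPS, and reached 7635 CPM in SAL-SAL. In the striatum they ran from 185 to 1294 CPM in MOR-SAL and from 166 to 5837 CPM in MOR-LPS. In bulk nuclei, a change in the number of nuclei of a type and a change in RNA per nucleus cannot be told apart.

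Across libraries Ptgds correlated with the oligodendrocyte and microglial sums, with lower coefficients for the astrocyte sum. With oligodendrocyte markers Pearson's r and Spearman's rho were 0.878 and 0.782 over 48 hypothalamic libraries, 0.729 and 0.545 over 53 hippocampal, 0.614 and 0.469 over 45 prefrontal and 0.841 and 0.804 over 54 striatal libraries. Without the 2 libraries farthest from the median marker level, r was 0.870, 0.484, 0.518 and 0.813. With microglial markers r and rho were 0.803 and 0.593, 0.752 and 0.685, 0.763 and 0.803, and 0.924 and 0.910, and r was 0.748, 0.532, 0.737 and 0.908 without the 2 libraries. Within single conditions rho with oligodendrocyte markers ran from 0.789 to 0.950 in the hypothalamus, 0.50 to 0.758 in the hippocampus, -0.140 to 0.709 in the prefrontal cortex and 0.729 to 0.976 in the striatum. With astrocyte markers r and rho were 0.739 and 0.574, 0.542 and 0.258, 0.440 and 0.392, and 0.588 and 0.524. Without the 2 libraries r was 0.706, 0.210, 0.381 and 0.536, so the hippocampal relation rests on those libraries, and its rho did not pass (adjusted permutation p = 0.11). Within single conditions the astrocyte rho was as low as -0.367 in the prefrontal cortex. With neuronal markers r lay between -0.209 and -0.0564.

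These were 28 relations, 7 marker lists in 4 regions, with adjusted permutation p of at most 5.1e-05 for the r values with oligodendrocyte and microglial markers and of at most 0.0031 for their rho values. A permutation p of 1e-05, reached by 7 of those 8 r values, is the smallest that 100000 permutations can give. Ptgds was shuffled over all these libraries of a region, across conditions, sexes and litter numbers. The permutation p values therefore mix differences between groups with covariation between libraries.

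**Figure D2:**
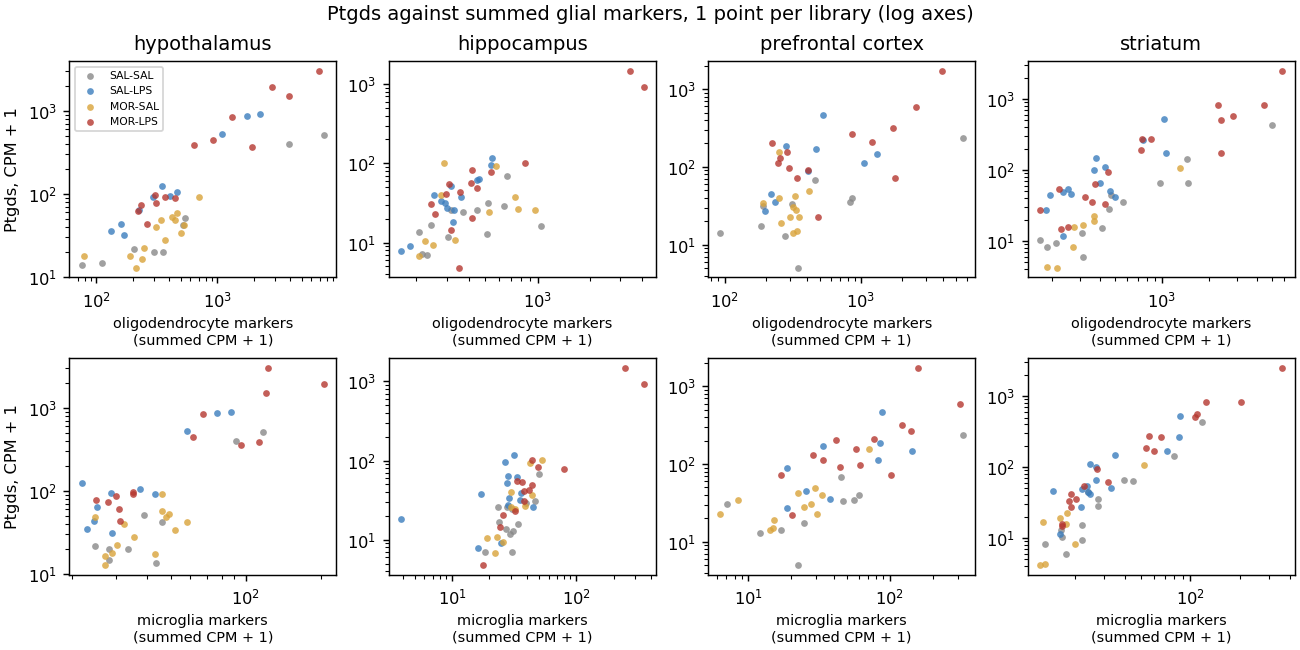
Ptgds against the summed oligodendrocyte (top) and microglial (bottom) markers, both as CPM + 1 on log axes, 1 point per library coloured by condition, without low-depth libraries. For oligodendrocyte markers Pearson's r runs from 0.614 in the prefrontal cortex to 0.878 in the hypothalamus. For microglial markers it runs from 0.752 in the hippocampus to 0.924 in the striatum.

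The Ptgds values of both exposures moved when a marker sum was added to the fit, an alternative chosen after seeing the data. With the oligodendrocyte sum as a covariate, the log2 fold changes of Ptgds with LPS after saline and after morphine were 1.68 (SE 0.26) and 1.94 (SE 0.24) in the hypothalamus and 2.13 (SE 0.25) and 1.71 (SE 0.29) in the striatum. All 4 were called, with edgeR adjusted p from 1.62e-07 to 0.00105. In the hippocampus the value after saline was called (1.21, SE 0.34, edgeR adjusted p = 0.0357) and that after morphine was not (0.40, SE 0.35, edgeR adjusted p = 0.704). Neither prefrontal value was called (1.86, edgeR adjusted p = 0.0940, and 1.53, edgeR adjusted p = 0.0587).

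The interaction of Ptgds was then 0.26 (SE 0.34) in the hypothalamus, -0.81 (SE 0.49) in the hippocampus, -0.33 (SE 0.59) in the prefrontal cortex and -0.42 (SE 0.36) in the striatum, with none called. With the microglial sum instead, the values after saline were 1.36, 1.69, 1.48 and 1.35 in the hypothalamus, hippocampus, prefrontal cortex and striatum. Of these the hippocampal (edgeR adjusted p = 0.0135) and striatal ones (edgeR adjusted p = 0.000823) were called. The values after morphine were 2.56, 0.46, 1.14 and 0.92, of which the hypothalamic one was called (edgeR adjusted p = 0.000862), and the interactions were 1.20, -1.23, -0.34 and -0.44. The part of these cell types in the Ptgds differences was not tested.

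The gene most like Ptgds over libraries, by Spearman's rho among genes with a mean of at least 5 CPM, was Apod in every region, with rho of 0.903, 0.827, 0.817 and 0.960. Apod encodes apolipoprotein D, which like Ptgds belongs to the lipocalins. Next came Cyp2d22 and the complement gene C4b in the hypothalamus (0.838 and 0.831), Adipor2 and clusterin, Clu, in the hippocampus (0.734 and 0.724), Lgi3 and Ivd in the prefrontal cortex (0.813 and 0.784), and Hapln2 and Tprn in the striatum (0.922 and 0.901). These values are descriptions, since the libraries share depth and composition.

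By sex, Ptgds in hypothalamic MOR-LPS ran from 42.3 to 3024 CPM in 7 females, with a median of 841, and from 60.1 to 360 CPM in 7 males, with a median of 86.9. In striatal MOR-LPS the medians were 538 CPM in 8 females and 50.9 CPM in 10 males. The LPS effect on Ptgds after morphine in females less that in males was 3.20 (SE 0.85, edgeR adjusted p = 0.0774) in the hypothalamus, 2.04 (SE 0.95, edgeR adjusted p = 0.266) in the hippocampus, -0.42 (SE 0.95, edgeR adjusted p = 1.00) in the prefrontal cortex and 4.67 (SE 1.31, edgeR adjusted p = 0.333) in the striatum. No difference was called for Ptgds, where 0.0347%, 0.181%, 0% and 0% of all genes were. Of all genes 1661 prefrontal and 2190 striatal ones had an unadjusted p under 0.05. Nearly every litter number had a single sex, and these fits had no litter term, so the sex difference was not tested against the spread between litters.

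The cyclooxygenases were not called by the main edgeR fits in any comparison of conditions. DESeq2 and some edgeR alternatives and leave-outs called Ptgs1 in the hypothalamus. Ptgs2 was called there by edgeR for MOR-SAL against SAL-SAL without litter 9. Ptgs2 in the hypothalamus was at 0 in 10 of 11 SAL-SAL, 7 of 12 SAL-LPS, 4 of 14 MOR-SAL and 2 of 14 MOR-LPS libraries. Its highest levels were 18.1 CPM, in 1 SAL-LPS and 1 MOR-LPS library. The lowest hypothalamic totals were 160755 in SAL-SAL and 7673 in SAL-LPS, against 3509261 in MOR-SAL and 3036876 in MOR-LPS. The part of depth in the shares at 0 was not tested. The log2 fold changes of Ptgs2 with LPS were 3.27 (SE 1.26, edgeR adjusted p = 0.182) after saline and 1.99 (SE 0.91, edgeR adjusted p = 0.185) after morphine. The first ran from 0.87 without litter 1 to 6.73 without litter 9, and it was -0.57 in females alone. Library 1-2, of litter 1, held the SAL-LPS value of 18.1 CPM, with the other SAL-LPS libraries at 0.982 CPM or less, and library 9-4, of litter 9, was the only SAL-SAL library with a read, at 0.936 CPM. Without litter 9 no SAL-SAL library had a read, so the value of 6.73 depends on the prior count.

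In the hippocampus, where Ptgs2 was highest, the medians were 8.06 CPM in SAL-SAL, 3.69 in SAL-LPS, 5.06 in MOR-SAL and 6.34 in MOR-LPS. Of the SAL-LPS libraries 12 of 14 lay below the SAL-SAL median. The difference after saline, -0.83 (SE 0.39, edgeR adjusted p = 0.247), and that after morphine, 0.29 (SE 0.39, edgeR adjusted p = 0.840), were not called on the log2 scale, nor was the interaction (edgeR adjusted p = 0.388).

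**Figure D3:**
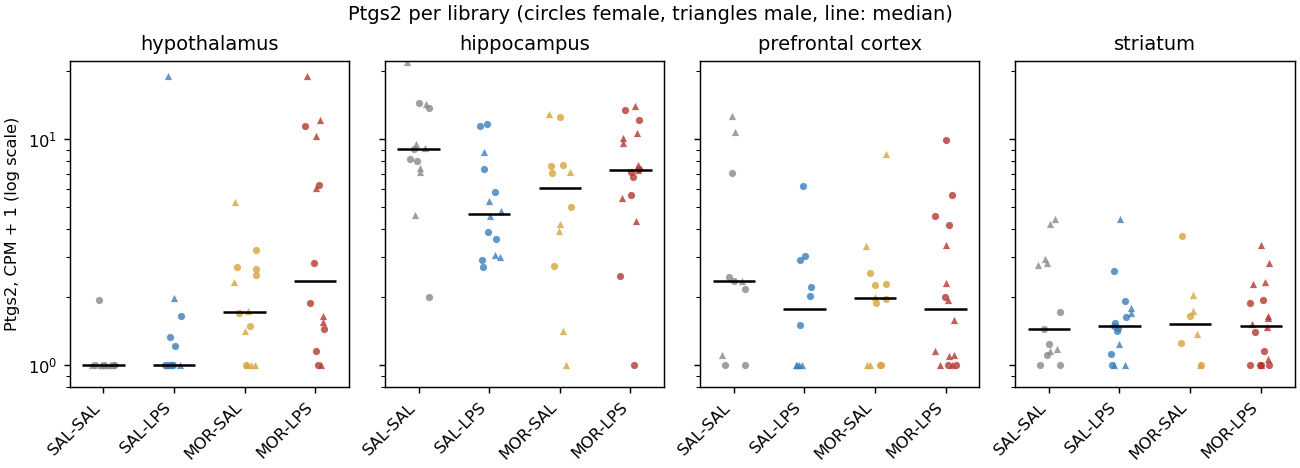
Ptgs2 in each library as CPM + 1 on a log axis, by region and condition, with circles for females, triangles for males and a line at the group median. The hippocampal libraries have a median of 6.19 CPM, whereas 23 of 51 hypothalamic libraries are at 0.

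Ptgs1, the constitutive cyclooxygenase, had hypothalamic medians of 3.11 CPM in SAL-SAL, 5.09 in SAL-LPS, 3.61 in MOR-SAL and 6.73 in MOR-LPS. Of the MOR-LPS libraries 12 of 14 lay above the MOR-SAL median. The log2 fold change after morphine was 1.41 (SE 0.47, edgeR adjusted p = 0.0565), which DESeq2 called (DESeq2 adjusted p = 0.0183). Over 45 fits that left out 1 litter or library it ran from 1.13 to 1.56 and was called in 6, those without litter 5 or 7 or library 6-1, 7-1, 13-2 or 14-0. In the other regions the LPS differences of Ptgs1 ran from -0.56 to 0.33 on the log2 scale. The genes most like Ptgs1 in the hypothalamus were Gm26631, Col5a3 and the astrocyte marker Gfap, with rho from 0.495 to 0.534 over 48 libraries.

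Ptges had hypothalamic medians of 2.58 CPM in SAL-SAL, 3.6 in SAL-LPS, 6.82 in MOR-SAL and 5.14 in MOR-LPS. All 14 MOR-SAL libraries lay above the SAL-SAL median, but the log2 difference of Ptges between them, 0.58 (SE 0.46), was not called (edgeR adjusted p = 0.582). With LPS it differed by 0.13 (SE 0.51) after saline and by -0.15 (SE 0.42) after morphine. Its prefrontal medians were 3.67, 0.610, 5.84 and 3.38 CPM in SAL-SAL, SAL-LPS, MOR-SAL and MOR-LPS, with LPS differences of -1.07 (SE 0.85) and -0.77 (SE 0.71), neither called. All 10 SAL-LPS libraries lay below the SAL-SAL median and 15 of 16 MOR-LPS libraries below the MOR-SAL median.

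Ptges3 in the striatum had medians of 36.5 CPM in SAL-SAL, 18.9 in SAL-LPS, 22.2 in MOR-SAL and 27.5 in MOR-LPS. With LPS, 13 of 15 libraries lay below the saline median after perinatal saline and 15 of 18 lay above it after morphine. The log2 differences were -0.51 (SE 0.15, edgeR adjusted p = 0.133) and 0.28 (SE 0.18, edgeR adjusted p = 0.407), and the interaction of 0.79 (SE 0.23) was not called (edgeR adjusted p = 0.0878). In the hypothalamus the group medians of Ptges3 ran from 26.2 to 33.4 CPM.

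Of the receptors, Ptger1 fell in the striatum with LPS after morphine. Its level ran from 4.69 to 15.2 CPM in MOR-SAL, with a median of 11.4, and from 2.97 to 9.59 CPM in MOR-LPS, with a median of 6.90. The ranges overlapped, and all 18 MOR-LPS libraries lay below the MOR-SAL median. The log2 fold change was -0.88 (SE 0.21, edgeR adjusted p = 0.0278). After saline it was -0.06 (SE 0.20), and the interaction, -0.82 (SE 0.29), was not called (edgeR adjusted p = 0.164).

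The call of Ptger1 was lost in 9 of 44 fits that left out 1 litter or library, those without litters 8, 12, 14, 15 or 16 or libraries 12-1, 14-1, 15-0 or 17-4. It was also lost under 9 of 15 alternatives. These were litter as a random block (-0.81, limma adjusted p = 0.0694) or a fixed one (-1.03, edgeR adjusted p = 0.110), scaling by library size alone (-0.66, edgeR adjusted p = 0.0712), and the oligodendrocyte (-0.81, edgeR adjusted p = 0.106) or microglial sum (-0.74, edgeR adjusted p = 0.123) as a covariate. The others were females alone (-0.66, edgeR adjusted p = 0.205), males alone (-1.05, edgeR adjusted p = 0.720) and limma with either pseudocount (-0.55 and -0.61, limma adjusted p = 0.0660 and 0.0614). The gene lies on the plus strand of chromosome 8 of mm10, from 83666678 to 83672753. With no strand setting stated, the counts of Ptger1 may hold reads from the opposite strand, so this result is uncertain.

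Prefrontal Ptger1 had medians of 19.5 CPM in MOR-SAL and 10.6 CPM in MOR-LPS, and 14 of 16 MOR-LPS libraries lay below the MOR-SAL median. The log2 difference of -1.01 (SE 0.41) was not called (edgeR adjusted p = 0.223). Under LPS in the hippocampus Ptger1 had medians of 8.82 CPM in SAL-LPS and 5.02 CPM in MOR-LPS, a log2 difference of -1.01 (SE 0.34, edgeR adjusted p = 0.0865). Of the MOR-LPS libraries 15 of 16 lay below the SAL-LPS median.

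Ptger4 differed with LPS by 0.02 to 0.86 on the log2 scale over the 4 regions and both exposures, with none called. Ptger3, the receptor through which prostaglandin E2 is known to raise body temperature, had hypothalamic medians of 0.881 CPM in SAL-SAL, 2.03 in SAL-LPS, 2.85 in MOR-SAL and 1.36 in MOR-LPS, with 15 of 51 libraries at 0. Its LPS differences there were 0.38 (SE 0.89) and 0.26 (SE 0.77), and those of Ptger2 were 0.23 (SE 0.85) and 0.17 (SE 0.72). With such errors, a change of that size in either receptor was not detectable at this depth.

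**Figure D4:**
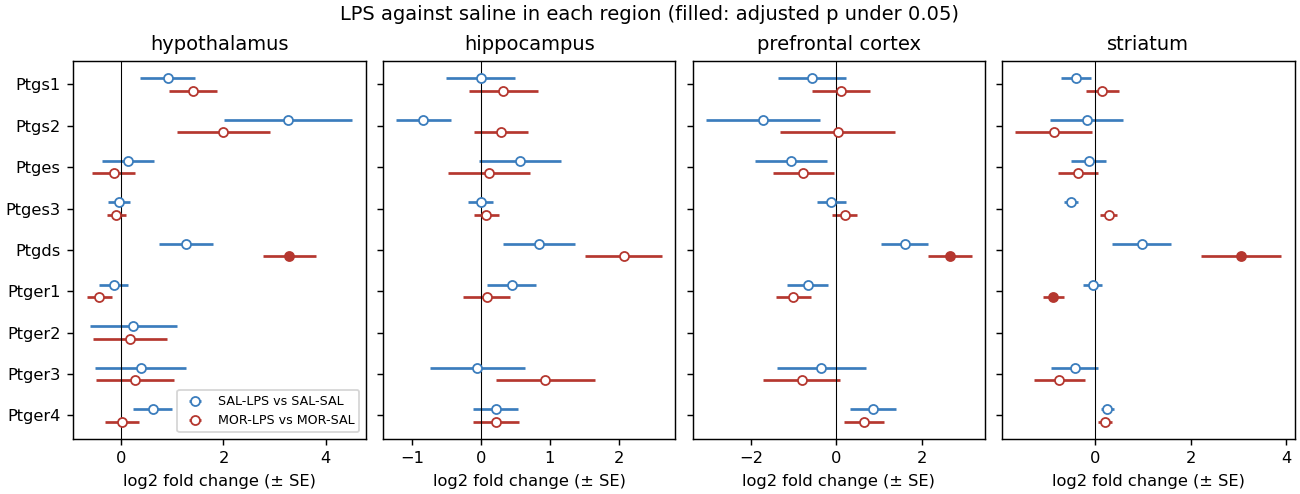
Log2 fold change with LPS (horizontal axis, bars of 1 SE) of each gene, after perinatal saline (blue) and morphine (red), filled where the edgeR adjusted p was under 0.05; horizontal scales differ between regions. Filled points are Ptgds in the hypothalamus, prefrontal cortex and striatum (3.29, 2.66 and 3.05) and Ptger1 in the striatum (-0.88).

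The design also asks what perinatal morphine changed without and with LPS. For MOR-SAL against SAL-SAL edgeR called 0 members in each region, where 1.44%, 0%, 0% and 0% of all genes were called, and at an unadjusted p under 0.05 there were 2, 0, 0 and 1. DESeq2 also called 0 members in each region. Over all genes of the hippocampus, prefrontal cortex and striatum 2272, 2185 and 2683 had an unadjusted p under 0.05 and DESeq2 called 7, 16 and 6. With a mean count of at least 10, edgeR called 0 members, against 1.15% of hypothalamic genes and 0% elsewhere. The members at an unadjusted p under 0.05 were Ptgds (-1.03) and Ptgs2 (2.69) in the hypothalamus and Ptges3 (-0.46) in the striatum, as log2 differences. For MOR-LPS against SAL-LPS edgeR also called 0, against 1.03%, 2.73%, 0.0046% and 0% of all genes, and at an unadjusted p under 0.05 there were 1, 2, 0 and 4. DESeq2 called 0 members in each region, and among all striatal genes it called 98, with 2628 at an unadjusted edgeR p under 0.05. With a mean count of at least 10, edgeR called 0 members, against 0.0119% of hypothalamic genes and 0% elsewhere. Ptgds was among the members at an unadjusted p under 0.05 in the hypothalamus (1.01), hippocampus (1.60) and striatum (1.24). The others were Ptger1 in the hippocampus (-1.01) and Ptger1 (-0.49), Ptgs1 (0.77) and Ptges3 (0.32) in the striatum.

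Another 44 genes of arachidonate release, other prostanoid synthases and receptors, transport and breakdown, and the lipoxygenase branch were read as a list. For MOR-LPS against MOR-SAL in the hypothalamus, 6 of 43 tested were called higher and 1 lower, beside 6.27% of all hypothalamic genes in either direction, with a list median of 0.04 on the log2 scale against 0.00 over all genes. Faah, which degrades the endocannabinoid anandamide, had medians of 110 CPM in MOR-SAL and 205 CPM in MOR-LPS and rose by 0.98 (SE 0.20, edgeR adjusted p = 0.00227). Pla2g4a, the cytosolic phospholipase A2 that frees arachidonic acid, was called at 5.55 (edgeR adjusted p = 0.000758) and the lipoxygenase Alox12b at 5.25 (edgeR adjusted p = 0.00468). Those 2 rest on mean counts of 5.71 and 6.31 per library, with 28 and 36 of 51 libraries at 0.

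In the striatum 2 of 41 were called, both higher, beside 1.39% of all genes. They were Lta4h, leukotriene A4 hydrolase, by 0.36 (SE 0.10, edgeR adjusted p = 0.0481) and the secreted phospholipase Pla2g3 by 1.79 (SE 0.46, edgeR adjusted p = 0.0356), with medians of 2.84 CPM in MOR-SAL and 6.50 CPM in MOR-LPS. In the hippocampus and the prefrontal cortex edgeR and DESeq2 called 0 of 39, with 3 and 5 at an unadjusted edgeR p under 0.05.

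Slco2a1, a prostaglandin transporter, had a hypothalamic log2 difference, MOR-SAL less SAL-SAL, of -2.15 (SE 0.45, edgeR adjusted p = 0.00739), with medians of 13.0 and 34.5 CPM. SAL-SAL stood apart from the other conditions, with medians of 11.0 CPM in SAL-LPS and 12.0 CPM in MOR-LPS. The 5 choroid plexus markers moved with it. Their summed level ran from 1.54 to 19.7 CPM in MOR-SAL, with a median of 8.73, and from 0.295 to 323 CPM in SAL-SAL, with a median of 43.2, against medians of 5.12 in SAL-LPS and 12.1 in MOR-LPS, and 2 of 5 (Folr1 and Ttr) were called lower, Folr1 on a mean count of 1.14 with 43 of 51 libraries at 0. Their part in the Slco2a1 result was not tested. With litter as a random block the call of Slco2a1 was lost (-1.51, limma adjusted p = 0.248). Pla2g4a was called in that comparison of MOR-SAL with SAL-SAL (-4.88, edgeR adjusted p = 0.00781), with 13 of 14 MOR-SAL libraries at 0. In the hippocampus Ptges2, a further prostaglandin E synthase, was lower in SAL-LPS than in SAL-SAL by -0.80 (SE 0.22, edgeR adjusted p = 0.0371), with medians of 14.3 and 25.7 CPM. The call of Ptges2 was lost when only genes with a mean count of at least 10 were fitted (edgeR adjusted p = 0.12). Pla2g4f was called lower in MOR-LPS than in SAL-LPS there, on a mean count of 1.29 with 44 of 55 libraries at 0.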

How the data were processed

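Raw counts per gene and CPM values were deposited by the authors for each region. Per the study's methods and processing notes, reads were trimmed with Trim Galore 0.6.7, aligned to mm10 and counted per gene with STAR 2.7.10a, with HTSeq 0.12.4 as a check of the counts; the strand setting is not given in the sources used here. The deposited CPM values are counts scaled to an equal library total after mitochondrial genes were dropped. Low depth widens the error of sparse genes, and counting without strand can mix overlapping genes.

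The main test was edgeR 4.0.16's quasi-likelihood test on the deposited counts, 1 fit per region, with TMM scaling, genes with a total count above 10, terms for condition and sex, and Benjamini-Hochberg adjustment, called at an adjusted p under 0.05. Regions were compared in a joint fit. On simulated data this test held its level for well-counted genes and made false calls among genes with few counts. The simulated counts were drawn independently for each library, without litter, sex or cell type differences. The level in the real libraries was therefore not tested. Because of those false calls, a fit of genes with a mean count of at least 10 was added after seeing the data. It called 655 genes in place of 1809 for MOR-LPS against MOR-SAL in the hypothalamus, 7 in place of 103 in the hippocampus, 2 in place of 4 in the prefrontal cortex and 259 in place of 325 in the striatum. The 4 calls of Ptgds and Ptger1 were made in both. Alternatives used DESeq2 1.42.0 and limma 3.58.1 on log2(CPM + 1).

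Litters were treated as a block in alternatives, since replicate names hold litter and animal numbers, per the study's sample list. Deviations from the fitted condition and sex means were correlated between same-litter libraries of opposite challenge, without low-depth libraries. The averages were -0.0379, -0.0251, -0.00435 and 0.0644 in the hypothalamus, hippocampus, prefrontal cortex and striatum. Single striatal pairs ran from -0.721 to 0.782. Litter mates of the same condition were not compared, so these values do not show that litter mates are independent. The main fits have no litter term because the study's fits had none. The genes and lists were chosen with earlier results of these data known. All 9 genes are named, with up to 3 other pathway genes called per comparison by smallest adjusted p. Gene positions and exons are from the GENCODE vM21 annotation of GRCm38. Some overlap and marker results are not reported here.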

Additional observations from a re-analysis of the deposited data

Results flagged for a closer look

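In 24 sets of 8 to 10 libraries (8 genes in 3 groups) 8 values stood far from the rest of their group. The rule's chance rate of about 1 in 20 is for normal values, and these CPM values are skewed, with all 8 at the high end, so the count is not read against it. In the prefrontal cortex these were Ptgs2 at 5.22 CPM in a SAL-LPS library, against 2.05 in the next, Ptgds at 235 CPM in a SAL-SAL library (next 67.0), Ptger1 at 52.7 CPM in a SAL-SAL library (next 26.8), Ptger3 at 14.4 CPM in another SAL-SAL library (next 6.48) and Ptger4 at 43.3 CPM in a SAL-LPS library (next 13.1). In striatal MOR-SAL they were Ptgs1 at 7.63 CPM (next 4.05) and Ptgs2 at 2.74 CPM (next 1.05), both in the same library, and Ptgds at 105 CPM (next 21.5).

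The edgeR interaction test, of the LPS response after morphine less that after saline, called 7 other pathway genes in 1 region each. These were 5 of 43 in the hypothalamus, 1 of 39 in the hippocampus and 1 of 39 in the prefrontal cortex, beside 3.8%, 2.35% and 1.78% of all genes. In the hypothalamus the log2 interactions were 1.15 for Faah (edgeR adjusted p = 0.0184), 1.59 for Mgll (edgeR adjusted p = 0.0265), 2.12 for Slco2a1 (edgeR adjusted p = 0.0436), 5.70 for Pla2g4a (edgeR adjusted p = 0.00875) and 6.12 for Alox12b (edgeR adjusted p = 0.0287). With a mean count of at least 10 required, Faah remained called (edgeR adjusted p = 0.0461) and Mgll and Slco2a1 did not (edgeR adjusted p = 0.0585 and 0.0998). Slco2a1 had medians of 34.5 CPM in SAL-SAL and 11.0 CPM in SAL-LPS beside 43.2 and 5.12 CPM for the summed choroid plexus markers, whose part in the result was not tested. Pla2g4a and Alox12b, with mean counts of 5.71 and 6.31, were not fitted there and lie in the range where the test made false calls on simulated data. Pla2g4f in the hippocampus (-5.40) and Alox5ap in the prefrontal cortex (8.06) were called on mean counts of 1.29 and 1.60, with 44 of 55 and 41 of 48 libraries at 0, in the same range. Pla2g4f was at 0 in all 16 MOR-LPS libraries and Alox5ap in all 10 SAL-LPS libraries, so these fitted values depend on the prior count.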

How the results depend on the processing

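For MOR-LPS against MOR-SAL, the count of 1 member in the hypothalamus became 2 with DESeq2, DESeq2 size factors or no sex term, the added gene being Ptgs1, and was 1 to 2 when litters or libraries were left out. The hippocampal count of 0 became 1 with DESeq2, no sex term or without sex-mismatched libraries, and was 0 to 1 over leave-outs. The prefrontal count of 1 became 0 with the oligodendrocyte or microglial covariate, the random litter block, each sex alone, limma with either pseudocount and without sex-mismatched libraries (Y-linked genes against the labelled sex), and was 0 to 1 over leave-outs. The striatal count of 2 became 1 with library size alone, a total count above 0, the oligodendrocyte covariate, the random litter block, females alone or limma with either pseudocount, and 0 with the microglial covariate, the fixed litter block or males alone; leave-outs gave 0 to 2. For SAL-LPS against SAL-SAL the count of 0 became 1 with the oligodendrocyte covariate in the hypothalamus, hippocampus and striatum, and with the microglial covariate in the last 2. The hypothalamic interaction count became 1 with no sex term or females alone and was 0 to 1 over leave-outs, without litter 3 or 13 or library 13-3 (Ptgds 2.50, 2.61 and 2.38). MOR-SAL against SAL-SAL gave 0 to 1 there, the 1 being Ptgs2 without litter 9 (6.03, edgeR adjusted p = 0.0315). No remaining SAL-SAL library had a Ptgs2 read in that fit, so its value depends on the prior count. The hippocampal count for MOR-LPS against SAL-LPS became 1 with library size alone or females alone and 2 with no sex term (Ptgds and Ptger1), and was 0 to 1 over leave-outs, the 1 being Ptgds without litters 12, 14 or 17 or library 17-1. Between regions, SAL-SAL libraries alone called 3 members for hypothalamus against hippocampus and 1 in each other pair; hypothalamus against prefrontal cortex gave 1 with only genes counted everywhere or without low-depth libraries, and hypothalamus against striatum gave 4 with animal as a block. Ptgs2 in the hypothalamus after saline turned to -0.57 in females alone. The causes were not tested.

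Ptgds in the hypothalamus after morphine was called under all 17 alternatives and all 45 leave-outs (log2 fold change 2.80 to 3.89 over the latter). With litter as a replicate block, the pairing by litter changed Ptgds to 3.63 (random) and 3.31 (fixed) there, and in the striatum to 3.38 (called) and 3.04 (edgeR adjusted p = 0.195). In the hypothalamus Ptgs2, Ptger2 and Ptger3 had no read in 23, 11 and 15 of 51 libraries, more than any other member there, which limits their tests. Prefrontal Ptgs2 and Ptger3 had no read in 14 and 12 of 48 libraries.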
